A study of Homo sapiens with 6 samples.

Results

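The gelsolin family was examined as 8 genes of the deposited table, chosen by symbol: GSN, SCIN, VIL1, AVIL, VILL, CAPG, SVIL and FLII. They are 8 of 21293 genes in the table. The libraries came from H2087-LCC cells, a latency competent cancer population that the labels describe as a dormant metastatic derivative of human lung adenocarcinoma cells. TGFβ was given for 3 days or for 7 days, and the control cells had 3 days of SB505124 (SB), which blocks the kinase of the type I TGFβ receptor. Each of the 3 groups had 2 libraries. Cells under SB were sampled at 3 days alone, so time in culture and TGFβ cannot be told apart where 7 days is set against SB. The same holds for time in culture and length of TGFβ treatment where 7 days is set against 3 days. No untreated group was included, so an effect of SB cannot be told apart from one of TGFβ in any comparison with SB. All 6 libraries came from this 1 cell line, and the labels do not say that the 2 libraries of a group came from separate cultures. A figure legend of the study, on normalized read counts of these groups, calls the 2 technical replicates. SDs and p-values therefore measure only the spread between these libraries and not that between separate cultures.

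Members of the gelsolin family are built from repeats of the gelsolin domain, which binds actin and, in many members, calcium. Several of them sever actin filaments and then cap the fast-growing end, and membrane phosphoinositides release the cap, so that the family shortens filaments and remodels the cortical network under the plasma membrane. Epithelial cells use villin in their microvilli, secretory cells use adseverin to open the actin layer beneath the membrane, and gelsolin is found in most tissues.

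The table held counts that the authors normalized by library size and rounded to whole numbers, called normalized counts here. They summed to between 34306283 and 36340734 in a library, and from the gaps among the low values each library held an estimated 32000000 to 40000000 assigned reads. Of 9 epithelial markers, 9 averaged at least 10 normalized counts over the 6 libraries, with a summed level of 105957 to 123822 in SB, 98913 to 111202 at 3 days and 89158 to 102076 at 7 days. The markers did not move together. CDH1, the epithelial cadherin, had 371 and 635 normalized counts in SB and 10 and 9 at 7 days. EPCAM, KRT18, NKX2-1, NAPSA and SFTPB were also lower in both 7-day libraries than in either SB library. KRT7 was higher, with 5860 and 6183 against 13979 and 11230, and KRT8 and KRT19 overlapped between these groups. None of 5 blood markers reached that mean, with HBB at 0 in every library. Of 4 endothelial markers 2 reached it, with a summed level of 160 to 294 in SB, 93 to 109 at 3 days and 109 to 132 at 7 days. TGFBI, a gene known to be induced by TGFβ, had 23141 and 21758 normalized counts in SB, 142753 and 144378 at 3 days and 303620 and 307204 at 7 days. The 2 SB libraries differed from each other in single markers, with the surfactant gene SFTPB at 1104 and 8273 normalized counts, and leaving out either of them changed no call of a family member.

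Across the family, GSN was higher and SCIN lower at 3 days of TGFβ than in SB, and both differed further in the same directions at 7 days. CAPG was higher and SVIL lower at 3 days than in SB, with no difference past the threshold between 7 and 3 days. AVIL rose between 3 and 7 days. FLII differed little, and VIL1 and VILL were at or near 0. In the plot of normalized counts by library, the 6 expressed members kept the 2 libraries of a group close together.

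**Figure D1:**
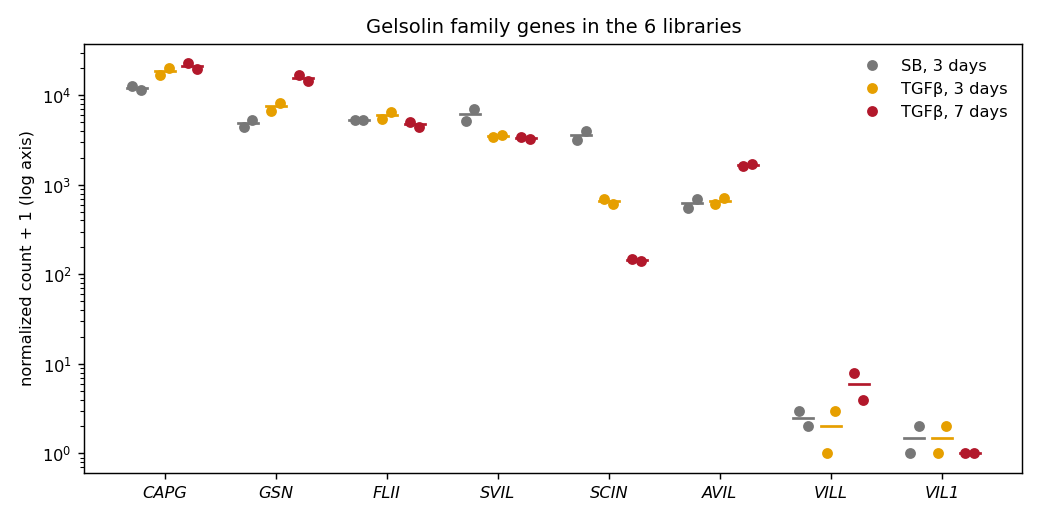
Normalized count plus 1 on a log axis for the 8 family genes, with a point for each library, a bar at the mean of the 2 libraries, and colours for the SB group and the 3-day and 7-day TGFβ groups. SCIN has 3195 and 3983 in SB and 146 and 140 at 7 days. GSN has 4457 and 5338 in SB and 16728 and 14544 at 7 days, and no VIL1 or VILL value passes 7 normalized counts.

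Differences were tested with limma on log2(normalized count + 1) over the 14395 genes that averaged 10 normalized counts or more, with Benjamini-Hochberg adjustment over all of them at 0.05. An exact permutation test of 2 libraries against 2 cannot give a p below 0.333, so none is given for single genes. Of the 8 members, 6 passed the filter, and VIL1 and VILL did not. After 3 days of TGFβ, 2 members were higher than in SB (GSN and CAPG) and 2 lower (SCIN and SVIL), beside 14.9% of all tested genes called higher and 14% called lower. After 7 days, 3 members were higher than in SB (GSN, AVIL and CAPG) and 2 lower (SCIN and SVIL), where 27.7% of tested genes were called higher and 26.9% lower. Between 7 and 3 days, 2 members were higher at 7 days (GSN and AVIL) and 2 lower (SCIN and FLII), against 17% and 16.2% of tested genes. The median log2 fold change of the 6 tested members was 0.14, 0.32 and 0.064 in the 3 comparisons in that order, and that of all tested genes was -0.022, -0.00081 and 0.019. The comparisons share libraries, so their counts are not independent of each other.

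**Figure D2:**
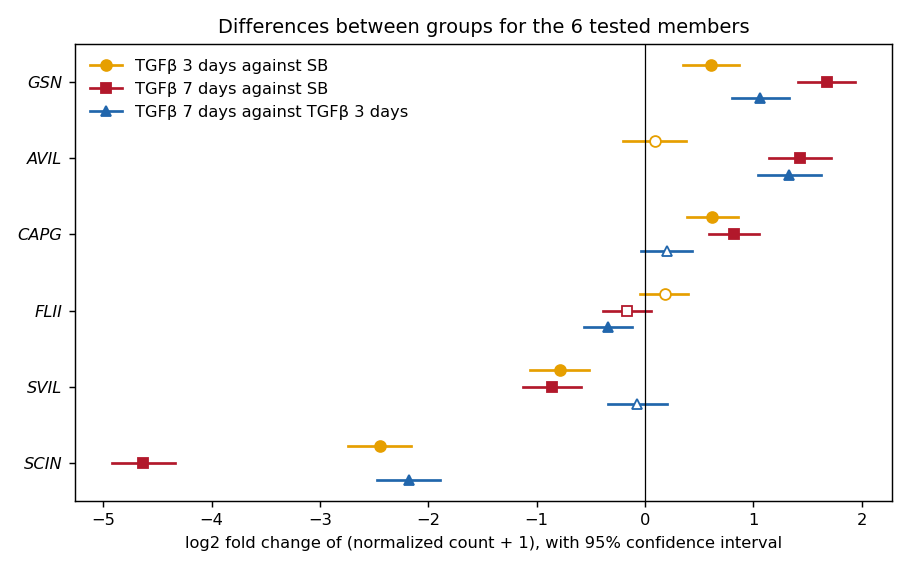
Log2 fold change of normalized count plus 1 with its 95% confidence interval for the 6 tested members in the 3 comparisons, with filled symbols for adjusted p under 0.05 and open symbols otherwise. SCIN lies far to the left at -4.63 for 7 days against SB, GSN (1.68) and AVIL (1.43) lie to the right, and AVIL sits at 0.093 for 3 days against SB.

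SCIN encodes adseverin (scinderin), a calcium-dependent severing protein known from secretory cells. The gene lies on the plus strand at chr7:12610203-12699807 (GRCh37, the build of the files). Its normalized counts were 3195 and 3983 in SB, 690 and 614 after 3 days of TGFβ, and 146 and 140 after 7 days. Both TGFβ groups lay far below SB, the 7-day libraries lay below the 3-day ones, and no groups overlapped. The mean was 5.5-fold lower at 3 days than in SB (log2 fold change -2.45, 95% confidence interval -2.74 to -2.16, limma adjusted p = 8.27e-08) and 25.1-fold lower at 7 days (-4.63, -4.92 to -4.34, adjusted p = 1.78e-10). From 3 to 7 days it fell a further 4.56-fold (-2.18, -2.47 to -1.89, adjusted p = 1.63e-06). By the size of the log2 fold change, 0.709% of tested genes differed more than SCIN between 7 days and SB. That share was 7.32% for GSN, 9.61% for AVIL, 21.2% for SVIL, 23% for CAPG and 77.9% for FLII. These are bulk libraries, in which fewer cells that express a gene and less RNA per cell cannot be told apart.

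AVIL encodes advillin, a villin relative known from sensory neurons and tuft cells, and lies on the minus strand at chr12:58191159-58212517. It had 554 and 690 normalized counts in SB and 608 and 715 at 3 days, so that these groups overlapped, and then 1605 and 1723 at 7 days. The difference between 3 days and SB was 0.093 on the log2 scale (95% confidence interval -0.2 to 0.38, limma adjusted p = 0.643), and its sign depended on single libraries, with -0.065 without SB library 1 and -0.024 without 3-day library 2. At 7 days the mean was 2.68-fold that in SB (1.43, 1.14 to 1.72, adjusted p = 3.67e-06) and 2.52-fold that at 3 days (1.33, 1.04 to 1.62, adjusted p = 4.28e-05). AVIL thus differed from SB at 7 days and not past the threshold at 3 days, when SCIN and GSN already did. Exons of TSFM on the opposite strand cover 303 bases of the AVIL exons (5.12%), and the library kit does not mark strand. TSFM, a mitochondrial translation factor, went the other way, with 8450 and 8532 normalized counts in SB and 6918 and 6816 at 7 days (log2 fold change -0.31, adjusted p = 0.00562).

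SCIN and AVIL are the members with a single start in the RefSeq promoter table, apart from FLII, and they moved in opposite directions, so the 250 bases before each start are shown here (GRCh38.p14, plus strand of chr7:12570470-12570719 for SCIN and minus strand of chr12:57818735-57818984 for AVIL). Capitals mark CAGAC, the short SMAD binding element, on either strand.
SCIN: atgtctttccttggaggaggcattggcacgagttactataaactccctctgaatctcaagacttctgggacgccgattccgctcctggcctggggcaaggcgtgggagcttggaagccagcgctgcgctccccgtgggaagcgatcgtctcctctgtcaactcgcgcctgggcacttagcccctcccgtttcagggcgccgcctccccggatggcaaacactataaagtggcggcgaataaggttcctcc
AVIL: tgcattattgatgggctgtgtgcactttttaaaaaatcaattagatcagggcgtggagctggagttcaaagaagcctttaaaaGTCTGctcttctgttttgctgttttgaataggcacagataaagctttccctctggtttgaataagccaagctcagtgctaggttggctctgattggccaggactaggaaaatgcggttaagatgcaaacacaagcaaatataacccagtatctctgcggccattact
The SCIN window holds none of the 6 motifs searched on both strands, which were CAGAC, the AP-1 site TGANTCA, the TEAD site GGAATG, the E-boxes CACCTG and CAGCTG, and the CArG box. The AVIL window holds 1 CAGAC match, on the strand opposite to the gene, and 38% of the 35116 windows of the same 250 bases before a start in the table hold CAGAC on one strand or the other. The GC content was 60% for SCIN and 42.4% for AVIL, beside a median of 58% for all windows. Of the 20 windows listed for 7 members (VIL1 has no entry), some of which overlap, 8 held CAGAC (40%). The AP-1 site was in 3 (15%, beside 6.57% of all windows) and the E-box CACCTG in 2 (10%, beside 17.5%). The E-box CAGCTG was in 4 (20%, beside 14%), the TEAD site in 1 (5%, beside 11.9%) and the CArG box in 1 (5%, beside 1.16%). A match is only a match of letters in these windows, and its absence says nothing about a factor.

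GSN encodes gelsolin, the calcium-activated severing and capping protein that gives the family its name, and lies on the plus strand at chr9:123970072-124095121. Its normalized counts were 4457 and 5338 in SB, 6709 and 8292 at 3 days and 16728 and 14544 at 7 days. No groups overlapped, and the difference between 7 and 3 days was larger than that between 3 days and SB. Means with SD (n = 2 each) were 4898 ± 623 for SB, 7500 ± 1120 for 3 days and 15636 ± 1540 for 7 days. At 3 days it was 1.53-fold that in SB (log2 fold change 0.61, 95% confidence interval 0.35 to 0.87, limma adjusted p = 0.00242), a call that was lost when genes with low values were also tested (adjusted p = 0.0516). At 7 days it was 3.19-fold that in SB (1.68, 1.41 to 1.94, adjusted p = 3.93e-07) and 2.08-fold that at 3 days (1.06, 0.8 to 1.33, adjusted p = 9.71e-05). The study took up gelsolin for later experiments from a comparison of these libraries at 7 and 3 days, so its rise here is not independent evidence. The antisense gene GSN-AS1 shares 279 exon bases with GSN (2.52%) and had 13 and 18 normalized counts in SB, 26 and 46 at 3 days and 73 and 52 at 7 days. Reads of the pair cannot be told apart where they overlap.

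GSN and SCIN lay further apart at 3 days than in SB, and furthest at 7 days. For each normalized count of SCIN there were 1.39 and 1.34 of GSN in SB, 9.72 and 13.5 at 3 days and 115 and 104 at 7 days. The lengths of both genes cancel when this ratio is set between libraries, and the 3 groups did not overlap.

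CAPG encodes the macrophage capping protein, which caps filament ends without severing them, and lies on the minus strand at chr2:85621876-85645555. Its normalized counts were 12596 and 11362 in SB, 16778 and 20288 at 3 days and 22673 and 19678 at 7 days. Both TGFβ groups lay above SB and overlapped each other. The mean was 1.55-fold that in SB at 3 days (log2 fold change 0.62, 95% confidence interval 0.39 to 0.86, limma adjusted p = 0.000954) and 1.77-fold at 7 days (0.82, 0.59 to 1.05, adjusted p = 5.44e-05). Between 7 and 3 days the difference was 0.2 (-0.038 to 0.43, adjusted p = 0.182), an interval that includes 0.

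SVIL encodes supervillin, a membrane-bound member that binds actin and myosin II, and is the longest of the genes at chr10:29746267-30025888 (minus strand). It had 5205 and 7083 normalized counts in SB, 3386 and 3642 at 3 days and 3387 and 3289 at 7 days. Both TGFβ groups lay below SB, and the 2 SB libraries differed 1.36-fold, the widest spread among the expressed members. The mean was 1.75-fold lower than in SB at 3 days (log2 fold change -0.79, -1.06 to -0.52, limma adjusted p = 0.000516) and 1.84-fold lower at 7 days (-0.86, -1.13 to -0.59, adjusted p = 0.000116). With each library left out in turn, the log2 fold change stayed between -1.01 and -0.57 at 3 days and between -1.09 and -0.64 at 7 days. Between 7 and 3 days it was -0.073 (-0.34 to 0.2, adjusted p = 0.683). The pseudogene SVILP1, which resembles part of SVIL, had 0 to 4 normalized counts in a library.

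FLII encodes flightless-1, which joins gelsolin repeats to leucine-rich repeats and also acts in the nucleus as a partner of nuclear receptors, and lies on the minus strand at chr17:18148129-18162052. Its values were 5300 and 5299 in SB, 5505 and 6516 at 3 days and 5029 and 4427 at 7 days, a much narrower range than for the members above. The log2 fold change against SB was 0.18 at 3 days (95% confidence interval -0.043 to 0.4, limma adjusted p = 0.214) and -0.17 at 7 days (-0.39 to 0.052, adjusted p = 0.177). Between 7 and 3 days it was -0.34 (-0.56 to -0.12, adjusted p = 0.0212), or 1.27-fold lower at 7 days. That call was lost without 3-day library 2 (-0.22, adjusted p = 0.197), without 7-day library 2 (-0.25, adjusted p = 0.206), with genes of low mean also tested (adjusted p = 0.0857) and with no trend in limma (adjusted p = 0.0997).

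VIL1 encodes villin, the bundling and severing protein of intestinal microvilli, and lies on the plus strand at chr2:219283844-219318018. It had 0 and 1 normalized counts in SB, 0 and 1 at 3 days and 0 in both 7-day libraries, where a count of 0 allows up to 3 reads. Of the VIL1 exons 44.2% lie over those of USP37 on the opposite strand, which had 951 to 1245 normalized counts. VILL encodes villin-like protein and lies on the plus strand at chr3:38029550-38048679. Its values were 2 and 1 in SB, 0 and 2 at 3 days and 7 and 3 at 7 days. With genes of low mean included in the fit, limma gave adjusted p of 0.65, 0.222 and 0.145 for VILL in the comparisons of 3 days with SB, 7 days with SB and 7 with 3 days. Neither villin gene was therefore measured well enough to compare groups.

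Levels can be set between genes only per length, so each normalized count was divided by the kilobases covered by the gene's exons in GENCODE v44lift37, which need not be the annotation the authors counted on. CAPG had the highest level in every library, between 4697 and 9373 normalized counts per kilobase, and made up 69.3% ± 3.75 of the family's summed level in SB, 78.7% ± 0.354 at 3 days and 76.2% ± 0.495 at 7 days (SD, n = 2 each). In both SB libraries the order was CAPG, FLII, SVIL, GSN, SCIN and AVIL. SVIL (415.2 and 565 per kilobase) and GSN (403.1 and 482.8) were not apart in SB beyond the spread of the libraries. At 3 days GSN was above SVIL, and SCIN (59.3 and 52.8 per kilobase) was below AVIL (102.7 and 120.8). At 7 days the order was CAPG, GSN, FLII, AVIL, SVIL and SCIN in both libraries, with AVIL (271.2 and 291.1) and SVIL (270.2 and 262.4) close together. The share of GSN in the summed level was 6.21% ± 0.905 in SB and 12.4% ± 0.0707 at 7 days, and that of SCIN was 4.33% ± 0.75 and 0.107% ± 0.00636. These shares and the order depend on the gene length chosen. By the canonical transcript GSN was already above SVIL in both SB libraries, and by the longest transcript in SB library 1. With the canonical transcript (2595 bases in place of 11057 for GSN) the share of GSN was 13.4% ± 1.91 in SB and 24.1% ± 0.0707 at 7 days, above FLII in every group, and that of SCIN was 2.64% ± 0.453 and 0.0591% ± 0.00389.

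Genes whose profile over the 6 libraries was most like that of GSN or SCIN were found among the 11388 other genes that averaged at least 100, by the root mean square distance between log2 profiles centred on their own means. Nearest to GSN were DLG4, a postsynaptic scaffold (distance 0.069), PLEKHO2 (0.0776), MFI2, which encodes the iron-binding melanotransferrin (0.0855), ENG, the TGFβ co-receptor endoglin (0.0913), and IGFBP6, an IGF-binding protein (0.104). ENG had 1527 and 1746 normalized counts in SB, 2447 and 3094 at 3 days and 5291 and 4655 at 7 days. Nearest to SCIN were IL1RL1, the IL-33 receptor (0.231), AGR2, a disulphide isomerase of secretory epithelium (0.323), HS6ST3, a heparan sulphate sulphotransferase (0.326), TACR1, the substance P receptor (0.333), and FOXQ1, a forkhead transcription factor (0.335). AGR2 had 2155 and 2516 in SB, 631 and 549 at 3 days and 178 and 139 at 7 days. The neighbours of GSN were closer than those of SCIN on this scale, on which larger changes leave larger distances. The points share their libraries and the genes were picked for likeness, so these values are a description.

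**Figure D3:**
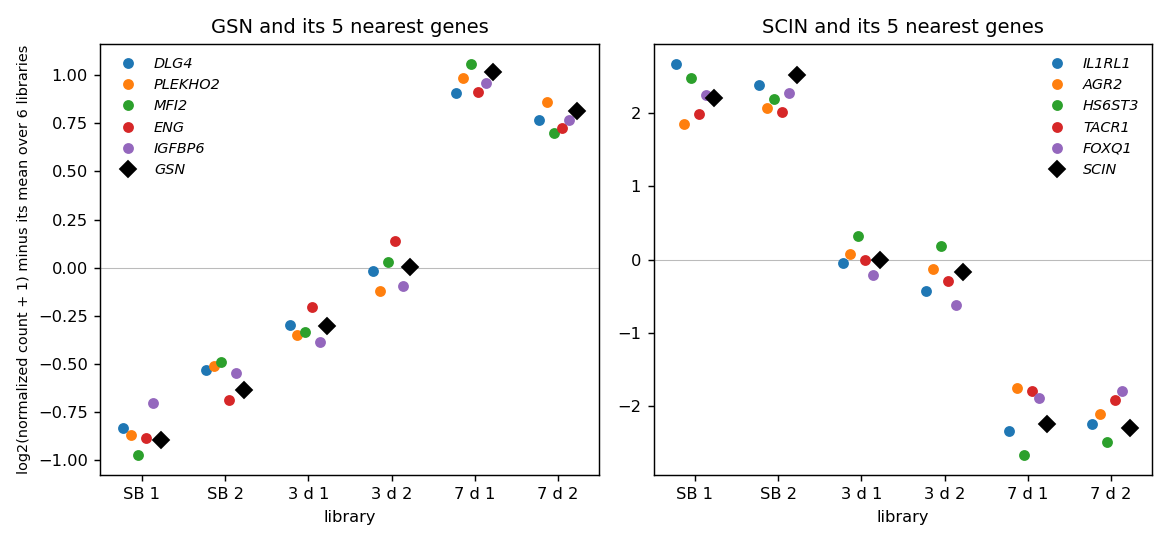
Log2(normalized count + 1) minus each gene's mean over the 6 libraries, for GSN (left) and SCIN (right) as black diamonds and for the 5 genes nearest to each as coloured points, with libraries along the horizontal axis and different vertical scales. The GSN set is highest in the 7-day libraries, and the SCIN set is lower at 3 days than in SB and lower again at 7 days.

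Other actin regulators were taken from 7 lists that do not include the family, 80 genes in all, of which 67 were tested. After 3 days of TGFβ, 17 were higher and 8 lower than in SB (37.3% called, beside 29% of all tested genes). After 7 days 26 were higher and 15 lower than in SB (61.2%, beside 54.5%), and between 7 and 3 days 10 were higher and 11 lower (31.3%, beside 33.2%). The last 2 shares lay near those of all genes, and nothing particular to actin regulators is read from any of these shares. Their median log2 fold change was 0.13, 0.19 and -0.03. The 25 calls at 3 days became 14 without 3-day library 1, and the 21 calls between 7 and 3 days became 13 without 3-day library 1, 13 without 7-day library 1 and 8 without 7-day library 2.

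Of 15 tested filament cappers outside the family, 5 were higher and 3 lower at 7 days than in SB (53.3% called, beside 54.5% of all tested genes, with a median log2 fold change of 0.19). The largest rise was that of ADD3, an adducin that caps filaments in the membrane skeleton, with 1998 and 2295 normalized counts in SB and 3278 and 3696 at 7 days (0.7, limma adjusted p = 0.000163). The largest fall was that of EPS8L1, a relative of the capper EPS8, with 156 and 127 against 87 and 66 (-0.88, adjusted p = 0.00406), which was lost without 7-day library 2 (-0.69, adjusted p = 0.0531). Cofilin is the other main severing protein of animal cells, and of 16 tested genes for cofilins and their control 4 were higher and 4 lower at 7 days than in SB (50%, also near the share of all genes, median 0.021). The LIM kinases, which inactivate cofilin by phosphorylation, went apart: LIMK1 had 2762 and 3004 normalized counts in SB and 6743 and 5762 at 7 days (1.11, adjusted p = 2.07e-05), and LIMK2 had 636 and 651 against 410 and 404 (-0.66, adjusted p = 0.000544).

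Of 6 tested monomer-binding genes, 4 were higher and 1 lower at 7 days than in SB (median 0.48). That was 83.3% called, beside 54.5% of all tested genes. PFN1, the main profilin, had 26936 and 21492 normalized counts in SB and 16677 and 15722 at 7 days (-0.57, limma adjusted p = 0.000555). TMSB15A, a thymosin, had 3 and 7 against 13 and 25 (1.75, adjusted p = 0.0114), and its call was lost without SB library 1 (1.25, adjusted p = 0.0654). Of 3 tested actin genes, none was higher and 1 lower at 7 days than in SB (33.3% called, beside 54.5% of all tested genes). The lower one was the cytoplasmic actin ACTG1, with 72392 and 63668 against 58398 and 54948 (-0.26, limma adjusted p = 0.0268). That call was lost without SB library 1 (-0.17, adjusted p = 0.126), without 7-day library 1 (-0.31, adjusted p = 0.0785), without 7-day library 2 (-0.22, adjusted p = 0.209), with genes of low mean also tested (adjusted p = 0.0808) and with no trend in limma (adjusted p = 0.1).

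Villin's headpiece domain also occurs in proteins without gelsolin repeats, and of 3 such genes tested 2 were higher and 1 lower at 7 days than in SB (median 0.36). That was 100% called, beside 54.5% of all tested genes. ABLIM3, an actin-binding LIM protein, had 6230 and 5586 normalized counts in SB, 13376 and 13626 at 3 days and 18389 and 17970 at 7 days (7 days against SB 1.62, limma adjusted p = 2.15e-08). DMTN, dematin of the red cell membrane skeleton, had 217 and 248 in SB and 143 in both 7-day libraries (-0.69, adjusted p = 0.00297). Of 9 tested genes of microvilli and the brush border, the structure villin serves in the gut, 4 were higher and 3 lower (77.8% called, median -0.048). MYO7B, a myosin at the tips of microvilli, was at 0 in both SB libraries and had 71 and 113 normalized counts at 3 days and 105 and 83 at 7 days, at least 31.3-fold higher at 7 days against a floor of 3 counts per library. PLS1, the bundling protein plastin-1, had 5203 and 5269 in SB, 3278 and 3047 at 3 days and 2130 and 2311 at 7 days (7 days against SB -1.24, adjusted p = 3.68e-07).

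Phosphoinositides release the cap of gelsolin and its relatives, and of 15 tested genes for phosphoinositide kinases and phospholipases C 7 were higher and 2 lower at 7 days than in SB (60% called, beside 54.5% of all tested genes, median 0.34). PLCG2 had 56 and 47 normalized counts in SB and 155 and 121 at 7 days (1.4, limma adjusted p = 0.000188). PLCH1 had 341 and 581 in SB and 116 and 130 at 7 days (-1.85, adjusted p = 3.45e-05). Between 7 and 3 days 1 of the 15 was higher and none lower by limma at the same threshold (6.67%, beside 33.2% of all tested genes).

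**Figure D4:**
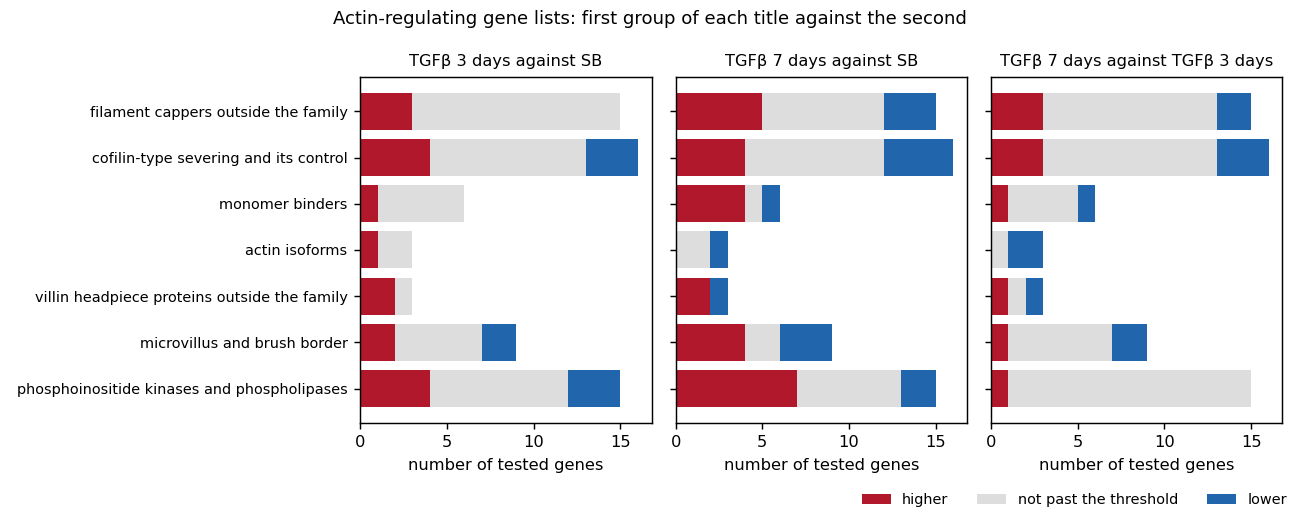
Number of tested genes that were higher, lower or not past the threshold in each of the 7 lists of actin regulators, one panel per comparison, with the first group named in each title set against the second. The panel of 7 days against SB holds the most calls, with 26 higher and 15 lower of 67 tested genes.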

How the data were processed

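PolyA RNA of 6 libraries was sequenced by the authors after preparation with a TruSeq kit that does not mark strand. Per the labels and the study's methods, reads were mapped to hg19 with STAR and counted on genes with HTSeq 0.6.1p1. The unit given to the deposited values is score: they are counts that the authors normalized by library size and rounded to whole numbers, and read counts per gene could not be recovered. The annotation release is not given in the sources used here. Without unnormalized counts, the study's negative binomial test was not run.

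Values were taken as log2(value + 1). Genes averaging 10 or more (14395) entered limma 3.58.1 (R 4.3.3, empirical Bayes with a trend), in 1 fit of all 6 libraries by group that left 3 residual degrees of freedom, and p-values were adjusted by the Benjamini-Hochberg method. Libraries were grouped by their titles. The steps were run on simulated data with 200 changed genes, as a check of the code alone. The simulated libraries were independent and had the same dispersion for all genes, so they give no error rate for the real libraries. The worth of 1 read, read off the spacing of low values, was 0.896 to 1.1 normalized counts. Such depths cover counting error only.

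The 8 members and the 7 lists were chosen with earlier results of these data known. Named besides the members were, per list, the called gene with the largest rise and fall between 7 days and SB, and the 5 genes nearest to GSN and to SCIN. Alternatives were pseudocounts of 0.5 and 5, no filter, a mean of at least 50, 3 other scalings, no trend, only the 4 libraries compared, a replicate block, each library left out, an added limit on fold change and other gene lengths. The crossed replicate block and the canonical transcript were chosen after seeing the data. Promoter windows came from RefSeq (GRCh38.p14), and loci from GENCODE v44lift37 (GRCh37). Plots were made in Python 3.11.15 (matplotlib 3.10.9).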

Additional observations from a re-analysis of the deposited data

Results flagged for a closer look

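For 4 members the difference from SB at 7 days was unlike that at 3 days by limma. Both differences share the SB libraries, so the test is the comparison of 7 with 3 days of TGFβ. Without SB cells at 7 days, it cannot tell a change in the effect of TGFβ from time in culture. Of all 14395 tested genes, 33.2% were called in this comparison. For GSN the difference from SB at 7 days minus that at 3 days was 1.06 on the log2 scale. For SCIN it was -2.18, a further fall in the same direction. For AVIL it was 1.33, with no difference from SB past the threshold at 3 days. For FLII it was -0.34, a call that did not hold under 4 of the alternatives.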

How the results depend on the processing

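Of 258 values of the members' log2 fold changes under the alternatives, 251 kept their sign and their side of the threshold, 5 lost the call and 2 changed sign. For named genes outside the family 912 of 983 did so, with 60 calls lost, 1 gained and 10 changes of sign. A further limit of 1 on the size of the log2 fold change left 1 member called at 3 days against SB and 3 at 7 days against SB, and 4, 9 and 2 of the list genes in the 3 comparisons. Without the filter, 13 list genes were called between 7 and 3 days. With each library left out in turn, 14 to 28 list genes were called at 3 days against SB, 30 to 42 at 7 days against SB and 8 to 14 between 7 and 3 days, and 3 to 4 members in the last. Signs turned only for differences that were not past the threshold. At 3 days against SB these were AVIL (left-out libraries -0.065 to 0.25, with -0.024 among them), ADD3 (-0.042 to 0.16, with -0.019 among them), PFN1 (-0.15 to 0.18, with -0.0097 among them, and -0.039 with equal library totals) and ACTG1 (-0.045 to 0.14, with -0.013 among them, and -0.0084 with equal library totals). Between 7 and 3 days it was MYO7B (-0.27 to 0.39, with -0.11 among them). No other scaling moved the median of all genes by over 0.1.

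The replicate numbers are not known to pair the libraries: deviations of same-numbered libraries correlated at 0.14 for 3 days and SB, -0.1 for 7 days and SB and -0.29 for 7 and 3 days. A replicate block gave 4, 5 and 4 members called and 25, 40 and 20 list genes. With crossed numbers for the 3-day libraries, 4 members and 20 list genes were called between 7 and 3 days. Of 48 shares of the family's summed level per length under another transcript length, 31 moved by at least 1 SD. These include VIL1 at 7 days, with a share of 0 under every length and an SD of 0. Precision is limited by the number of libraries, and for VIL1 and VILL by depth.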
